A study of Mus musculus with 4 samples.

Results

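The genes of pre-mRNA splicing factors and heterogeneous nuclear ribonucleoproteins (hnRNPs) were followed in laser-captured mouse intestinal crypts, whose segment the labels do not name. The group holds every gene with a probe set of its own whose symbol starts with Srsf, Snrp, Hnrnp, Sf3a or Sf3b. It came to 47 of 18193 genes, each represented by its brightest probe set over all 4 arrays, and 45 of the 47 passed the filter on dim probe sets. The 2 that did not were Srsf12 and Snrpn, whose deposited signals lay between 0.612 and 17.9 on the 4 arrays. Crypts of beta-catenin mutant mice, taken 2 days after tamoxifen had induced the deletion, were compared with crypts of control mice, with 2 arrays in each group. The labels do not name the Cre driver, the deleted exons, the strain, the age or sex of the mice, or whether the controls received tamoxifen. Nor do they state that arrays of the same group are from different animals, so a p-value here reflects array-to-array spread that can be purely technical. The mRNA went through 2 rounds of amplification before it was labelled.

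Splicing removes introns from the primary transcript. The spliceosome is built on each intron from small nuclear ribonucleoproteins (snRNPs), most of which carry a ring of Sm proteins around their RNA. SR proteins bind exons and recruit the machinery to nearby splice sites, whereas many hnRNPs coat the transcript and can mask such sites, so that the balance of the 2 families helps to set which exons are joined. The SF3A and SF3B complexes hold the U2 snRNP on the branch site. In the intestine these genes are widely expressed, and dividing crypt cells make much new RNA.

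The arrays were examined first. Over the 22519 probe sets that passed the filter, the correlation was 0.918 between the mutant arrays, 0.932 between the control arrays and 0.912 to 0.936 across groups (Pearson's r, a description over probe sets that share their arrays). Mutant replicate 1 held abundant pancreatic acinar transcripts: its 8 measured acinar marker genes averaged 12.81 on the log2 scale, mutant replicate 2 had 4.02, and control replicates 1 and 2 had 4.37 and 4.28. For beta-actin, the 5' over 3' probe set signal, which drops as transcripts shorten, was 0.0945 and 0.0448 in mutant replicates 1 and 2 and 0.149 and 0.0567 in control replicates 1 and 2. Ctnnb1, the deleted gene, had 12.02 and 11.85 in mutant replicates 1 and 2 and 12.43 and 12.56 in the controls. The difference was -0.56 on the log2 scale (SE 0.22, limma adjusted p = 0.785), and a dimmer probe set differed by 0.38 (SE 0.50). As deposited, the brighter probe set had 5229 and 3449 in the mutants and 4700 and 5997 in the controls, so the groups overlapped there. The epithelial markers (6 genes: Epcam, Krt8, Krt18, Krt19, Cdh1 and Cldn7) averaged 11.89 and 11.72 in mutant replicates 1 and 2 and 11.84 and 11.99 in the controls.

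With quantile-normalised values, most splicing and hnRNP genes had a lower signal in the mutant crypts, but the size of this shift depended on how the arrays were scaled. Levels are given as log2(signal + 5), and a difference is the mutant mean minus the control mean on that scale. Of the 45 genes, 38 were lower in mean signal and 7 higher, where 49.3% of all 11395 genes tested were lower. In 24 genes both mutant arrays lay below both control arrays (called entirely lower from here on), which held for 19.2% of all genes, and in 0 genes did both lie above, which held for 18.9%. The median difference was -0.34 on the log2(signal + 5) scale over the 45 genes and 0.01 over all genes tested. With the values as deposited the median was -0.14, with 31 genes lower in mean (against 48.9% of all genes), 11 entirely lower and 4 entirely higher (against 14.9% of all genes in each direction). With median centring it was -0.022, with 25 lower in mean (against 39.4%), 5 entirely lower and 1 entirely higher (against 10.1% and 18.7% of all genes). Median centring also moved the median of all genes to 0.13, and the median of the splicing genes minus that of all genes was -0.16. That value is the same in both settings by construction, since centring shifts every deposited difference by the same amount. All 45 genes were above the 75th percentile of signal, so they were also set beside the genes that bright. Of those, 12.3% were entirely lower on the deposited scale, 18% entirely higher and 42.7% lower in mean, and after median centring 7.29%, 20.4% and 33.9%. Under all 3 scalings together, 4 genes were entirely lower (Srsf2, Srsf10, Hnrnpr and Hnrnpul1), which is 8.89% of the 45 against 7.92% of all genes and thus near the background, and 25 were lower in mean, where 38.9% of all genes were.

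None of these differences passed the test across all probe sets. By limma with Benjamini-Hochberg adjustment, 0 of 22519 probe sets were called (0%), and the lowest adjusted p among the splicing and hnRNP genes was 0.768. On the deposited scale 2 probe sets were called (0.00888%) and with median centring 102 (0.453%), and 0 of the 45 genes passed in either. Without mutant replicate 1 it was 19 (0.0844%) and without mutant replicate 2 it was 85 (0.377%), again with 0 of the 45 genes. At an unadjusted p under 0.05, 6 of the 45 genes were lower (Srsf3, Srsf6, Snrpe, Sf3b1, Sf3b5 and Hnrnpr) and 0 higher, against 3.62% and 3.32% of all genes. With 2 arrays against 2, an exact permutation test of a single value cannot go below p = 0.333 (two-sided).

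**Figure D1:**
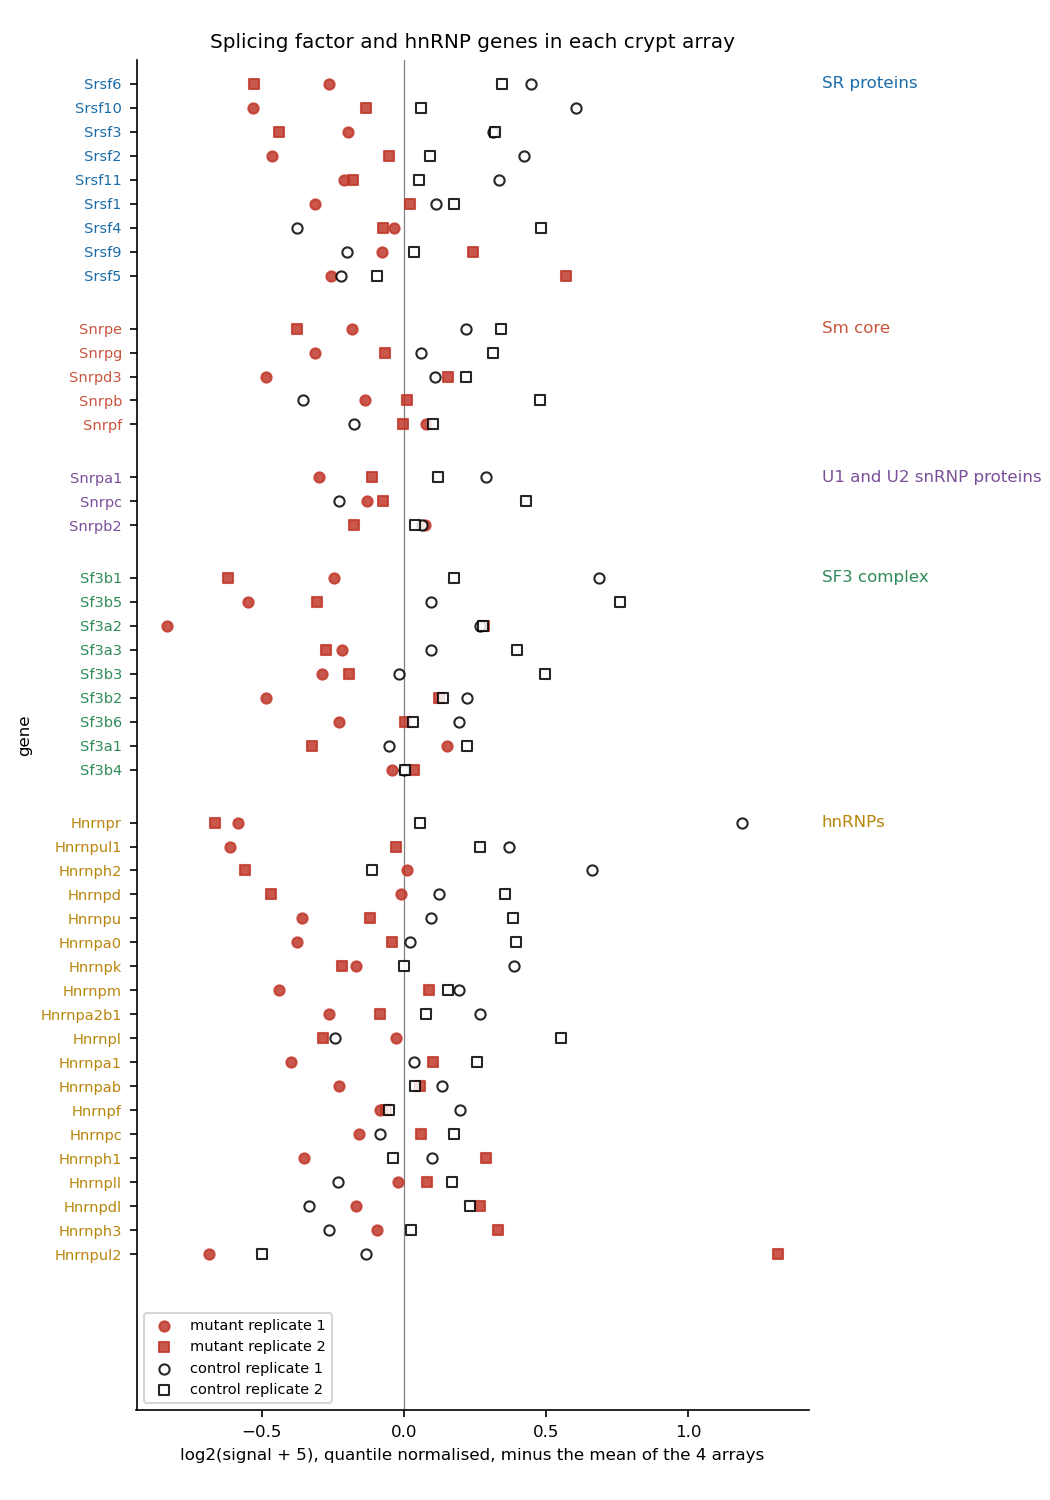
Quantile-normalised log2 signal of each of the 45 genes in each array, as the difference from that gene's mean over the 4 arrays (x axis, log2 units), with genes in rows ordered by role. Filled red symbols are the mutant arrays and open black symbols the control arrays; in 24 rows both filled symbols lie left of both open ones.

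**Figure D2:**
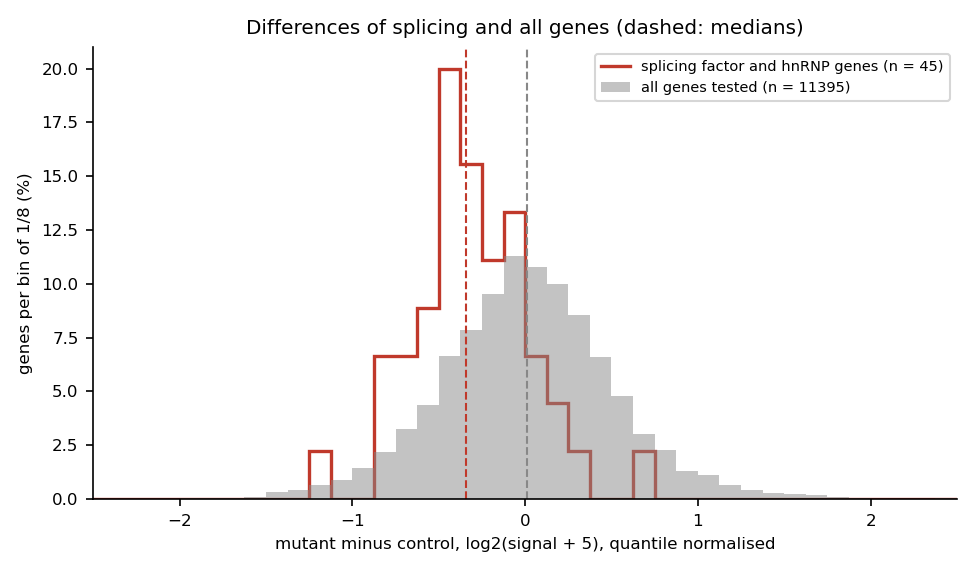
Mutant minus control difference (x axis, log2 units) of the 45 splicing and hnRNP genes (red outline) and of all 11395 genes tested (grey), as the share of genes per bin (y axis, percent). Dashed lines mark the medians, -0.34 and 0.01.

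Leaving out single arrays kept the direction of the median but not its size. With mutant replicate 1 removed, which carried the acinar transcripts, it was -0.23, with 28 genes below both controls (34.1% of all genes) and 8 above both (33.8%), and 34 lower in mean (50%). Removing mutant replicate 2 gave -0.41, removing control replicate 1 gave -0.33 and removing control replicate 2 gave -0.27. Genes entirely lower numbered 33, 34 and 26 in these last 3 settings (33.4%, 37.2% and 33% of all genes), entirely higher 1, 0 and 8 (34.1%, 32% and 38.6%), and lower in mean 39, 40 and 33 (49%, 53.3% and 47.2%). The array medians of the 45 genes were 9.69 and 10.19 in mutant replicates 1 and 2 and 10.32 and 10.39 in control replicates 1 and 2, so mutant replicate 1 was the lowest and mutant replicate 2 lay close to the controls. When mutant replicate 1 was left out and the arrays were median-centred, 14 genes were entirely lower (31.3% of all genes), 6 entirely higher (25.6%) and 25 lower in mean (52.4%), and the median of the splicing genes minus that of all genes was -0.053. On the deposited scale, the same omission left 31 genes entirely lower (52.4% of all genes), 6 entirely higher (17.8%) and 37 lower in mean (69.6%). Proliferation markers were also lower in the mutants. All 7 measured of 8 listed (Mki67, Top2a, Cdk1, Pcna, Mcm2, Mcm5 and Mcm6) were entirely lower after quantile normalisation, against 19.2% of all genes. Their means were 9.08 and 9.35 in mutant replicates 1 and 2 and 10.07 and 10.60 in the controls. These means are not the same measure as the median of the 45 genes, and the part of proliferation in the result was not tested. In RNA of whole crypts, fewer cells of a type and less RNA per cell cannot be told apart.

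Promoters of 42 of the 47 genes were matched by symbol in the RefSeq table (GRCm38.p6), and the 250 bases before the listed start were searched on both strands. The bases CCGGAAGT, bound by ETS family factors, occurred in 6 of 42 promoters (14.3%), against 2.93% of 27025 promoters of all genes. CACGTG, the E-box that MYC can bind, occurred in 1 (2.38% against 6.05%), and CTTTGAT, a core of the TCF/LEF element, in 0 (3.23% of all promoters). The median GC content was 60.6% in these promoters and 52% in all. A match is a description of the letters only. The 4 promoters below show where the ETS letters lay in genes that differed in opposite directions, Srsf5 (higher in mean), Sf3a3 and Sf3b2 (both entirely lower), beside that of Hnrnpr, which had the lowest difference and none of the 3 motifs. Capitals mark CCGGAAGT or its reverse complement.
Srsf5, chr12:80945249-80945498, plus strand: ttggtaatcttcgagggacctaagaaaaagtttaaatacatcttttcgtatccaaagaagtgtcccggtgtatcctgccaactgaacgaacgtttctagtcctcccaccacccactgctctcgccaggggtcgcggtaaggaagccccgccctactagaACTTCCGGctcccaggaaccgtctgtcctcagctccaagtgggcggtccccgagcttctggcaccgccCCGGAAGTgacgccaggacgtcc
Sf3a3, chr4:124714611-124714860, plus strand: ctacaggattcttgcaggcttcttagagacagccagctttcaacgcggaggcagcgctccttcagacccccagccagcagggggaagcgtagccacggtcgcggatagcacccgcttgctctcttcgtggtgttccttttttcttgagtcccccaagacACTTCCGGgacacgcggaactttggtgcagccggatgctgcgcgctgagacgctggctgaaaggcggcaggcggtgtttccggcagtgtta
Sf3b2, chr19:5295458-5295707, minus strand: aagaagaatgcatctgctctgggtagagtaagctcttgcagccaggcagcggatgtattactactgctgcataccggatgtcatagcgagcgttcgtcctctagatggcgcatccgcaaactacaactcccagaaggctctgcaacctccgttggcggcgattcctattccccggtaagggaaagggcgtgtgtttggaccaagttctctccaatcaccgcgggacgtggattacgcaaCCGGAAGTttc
Hnrnpr, chr4:136310692-136310941, plus strand: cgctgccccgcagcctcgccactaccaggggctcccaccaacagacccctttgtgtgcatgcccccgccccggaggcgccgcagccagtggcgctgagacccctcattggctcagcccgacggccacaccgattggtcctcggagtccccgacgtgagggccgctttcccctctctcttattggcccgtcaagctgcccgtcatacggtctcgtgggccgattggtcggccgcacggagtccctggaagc
The first base of the motif stood 91 and 23 bases before the start in Srsf5, 91 bases before it in Sf3a3 and 11 bases before it in Sf3b2.

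The SR proteins, which recruit the spliceosome to exons, included both directions. Of 9 genes past the filter, 7 were lower and 2 higher, 6 of them entirely lower (66.7%, against 19.2% of all genes), with a median of -0.39, -0.27 on the deposited scale and -0.15 with median centring. On the deposited scale 3 were entirely lower (Srsf2, Srsf6 and Srsf10) and 2 entirely higher, against 14.9% of all genes in each direction. With median centring 2 were entirely lower (Srsf2 and Srsf10, against 10.1%) and 1 entirely higher (against 18.7%). Srsf6, also known as SRp55, had log2 signals of 9.54 and 9.28 in the mutants, against 10.25 and 10.15 in the controls. Both mutant arrays lay clearly below the controls, whose own values differed little. The difference was -0.79 (SE 0.30, 1.73-fold lower, limma adjusted p = 0.785), and the 3 other probe sets of Srsf6 past the filter were also lower. Srsf3, the smallest SR protein and a shuttling adaptor for mRNA export, had 10.75 and 10.51 in the mutants and 11.26 and 11.27 in the controls. After quantile normalisation all 6 of its probe sets had both mutant arrays below both controls, with differences between -1.15 and -0.41, and its brightest stood at -0.64 (SE 0.26). In that brightest probe set the groups overlapped on the deposited scale and with median centring. Its deposited signals were 2243 and 1232 in the mutants and 2177 and 2381 in the controls. Srsf10, which acts as a splicing repressor when it is dephosphorylated, had 8.68 and 9.08 in the mutants and 9.82 and 9.27 in the controls, a difference of -0.66 (SE 0.35) that stood at -0.39 without control replicate 1.

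Other SR genes were closer together. Srsf2, known as SC35 and a mark of nuclear speckles, had 9.50 and 9.91 in the mutants and 10.38 and 10.05 in the controls. The groups did not overlap, at -0.51 (SE 0.32), although another of its 4 probe sets had the opposite sign at 0.11 (SE 0.34). Srsf11 had 8.90 and 8.93 in the mutants and 9.45 and 9.17 in the controls, a difference of -0.39 (SE 0.32). Srsf1, the founding SR protein, had 11.88 and 12.22 in the mutants and 12.31 and 12.37 in the controls, so mutant replicate 2 came close to the controls. Its difference was -0.29 (SE 0.23), which turned to 0.09 with median centring, and its other 5 probe sets ranged from -1.10 to 0.39. Srsf5 and Srsf9 were the 2 SR genes with a higher mean in the mutants, at 0.31 (SE 0.36) and 0.17 (SE 0.29). Srsf5 had 9.69 and 10.51 in the mutants and 9.72 and 9.85 in the controls, so mutant replicate 2 alone stood above the rest. With the values as deposited both genes were entirely higher in the mutants.

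The Sm proteins form the ring at the core of most snRNPs. Of 5 genes past the filter 4 were lower (against 49.3% of all genes), 2 of them entirely (against 19.2%), with a median of -0.33 that became -0.02 with median centring and -0.05 without mutant replicate 1. On the deposited scale 1 was entirely lower (Snrpd3, against 14.9% of all genes), and with median centring 0 (against 10.1%). Snrpe had 12.13 and 11.94 in the mutants, against 12.53 and 12.66 in the controls. Both mutant arrays were lower, by -0.56 on average (SE 0.22, 1.47-fold lower, limma adjusted p = 0.785), and the value stayed between -0.66 and -0.46 with each array left out. The groups of Snrpe overlapped on the deposited scale, at -0.32, and with median centring, at -0.20. Snrpg had 11.87 and 12.12 in the mutants and 12.24 and 12.50 in the controls, a difference of -0.38 (SE 0.23), while a second probe set of the gene stood at -1.05 (SE 0.45). Snrpd3 had 9.10 and 9.73 in the mutants and 9.69 and 9.80 in the controls. Mutant replicate 1 alone stood apart there, and the difference of -0.33 (SE 0.34) became -0.01 without it. Snrpb, which encodes the largest ring protein, had 10.61 and 10.76 in the mutants and 10.39 and 11.22 in the controls, so both mutant arrays lay between the controls, at -0.12 (SE 0.34), and the sign turned on the deposited scale (0.057) and after median centring (0.18). Snrpf was the 1 Sm gene with a higher mean, at 0.07 (SE 0.29). Probe sets ending in _s_at, such as those of Snrpe, Snrpg and Snrpb, can also bind related transcripts.

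Proteins found in only the U1 or the U2 snRNP gave 3 genes, all lower in mean and 1 entirely lower (against 19.2% of all genes), with a median of -0.20 that turned to 0.029 with median centring. Snrpa1, whose protein sits on the U2 snRNA, had 10.67 and 10.85 in the mutants and 11.26 and 11.09 in the controls. The groups did not overlap, and the difference was -0.41 (SE 0.26), with its other probe sets at -0.29 and -0.89. Snrpc, whose protein helps U1 to recognise the 5' splice site, had 8.98 and 9.03 in the mutants and 8.88 and 9.54 in the controls, at -0.20 (SE 0.35). Snrpb2, the binding partner of the Snrpa1 product, had 8.14 and 7.89 in the mutants and 8.12 and 8.10 in the controls, at -0.10 (SE 0.34). In these probe sets of both genes the groups overlapped, and the sign turned with median centring, to 0.029 and 0.032. A second probe set of Snrpb2 stood at -0.79 (SE 0.42), with both mutant arrays below both controls.

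The SF3A and SF3B subunits anchor U2 at the branch site. Like the SR proteins and the Sm genes, they kept a lower median under each scaling. All 9 genes were lower in mean, although Sf3b4 turned on the deposited scale and Sf3b4 and Sf3b6 with median centring, and 6 entirely lower (66.7%, against 19.2% of all genes), with a median of -0.48, -0.43 on the deposited scale and -0.31 with median centring. The count of entirely lower genes did not hold in this way: it was 3 on the deposited scale (Sf3a2, Sf3b2 and Sf3b5, against 14.9% of all genes) and 1 with median centring (Sf3b1, against 10.1%). Sf3b1, the subunit that clamps the branch site and is often mutated in blood cancers, had 9.99 and 9.62 in the mutants and 10.92 and 10.42 in the controls. Both mutant arrays lay below the controls, by -0.86 on average (SE 0.32, 1.82-fold lower, limma adjusted p = 0.772), and its 3 other probe sets stood between -0.60 and -0.34. Its deposited signals were 1333 and 660 in the mutants and 1748 and 1328 in the controls, so on that scale mutant replicate 1 just overlapped control replicate 2. Sf3b5, a small subunit of SF3B, had 9.13 and 9.37 in the mutants and 9.77 and 10.44 in the controls, at -0.85 (SE 0.35), or -0.52 without control replicate 2, while a second probe set gave -0.30 (SE 0.38). Sf3a3 had 7.95 and 7.89 in the mutants and 8.26 and 8.56 in the controls, and Sf3b3, the scaffold of SF3B, had 8.37 and 8.46 in the mutants and 8.64 and 9.15 in the controls. These genes were lower by similar amounts, -0.49 (SE 0.34) and -0.48 (SE 0.35). At the other end, Sf3b4 differed by -0.01 (SE 0.32) and Sf3a1 by -0.17 (SE 0.36).

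**Figure D3:**
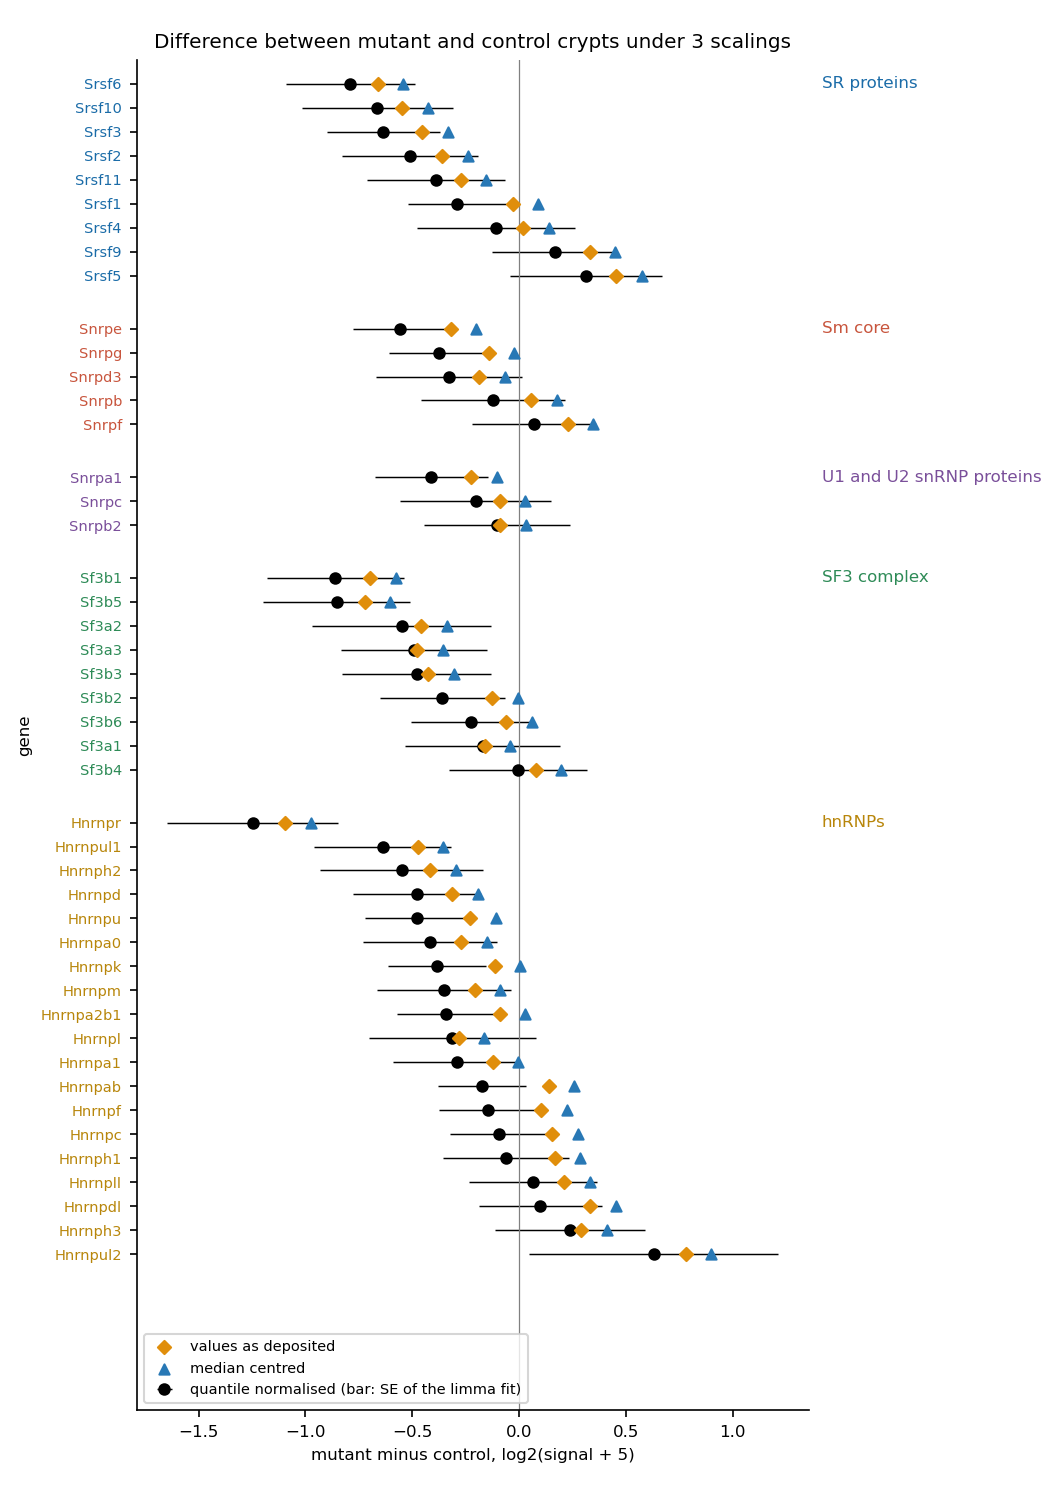
Mutant minus control difference (x axis, log2 units) of each of the 45 genes (rows, ordered by role) with quantile normalisation (black, bar: SE of the limma fit, 2 arrays per group), as deposited (orange) and after median centring (blue). The median over the genes is -0.34, -0.14 and -0.02 in that order. The SF3 subunits stay mostly left of 0. After median centring, where the median of all genes is 0.13, the hnRNPs and SR proteins lie on both sides.

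The hnRNPs, which package and sort nuclear transcripts, were the most varied. Of 19 genes 15 were lower and 4 higher, 9 of them entirely lower (47.4%, against 19.2% of all genes), with a median of -0.31, -0.11 on the deposited scale and 0.0044 with median centring. On the deposited scale 3 were entirely lower (Hnrnpm, Hnrnpr and Hnrnpul1), which is 15.8% and near the 14.9% of all genes. On that scale 2 were entirely higher (Hnrnph1 and Hnrnph3, also against 14.9%). With median centring 2 were entirely lower (Hnrnpr and Hnrnpul1), which is 10.5% and near the 10.1% of all genes. By that scaling 0 were entirely higher (against 18.7%). Hnrnpr, an RNA-binding protein related to SYNCRIP, had the lowest difference of all 45 genes. Its log2 signals were 9.39 and 9.31 in the mutants and 11.16 and 10.03 in the controls, so the mutant arrays lay close together and the control arrays far apart. The difference was -1.25 (SE 0.40, 2.37-fold lower, limma adjusted p = 0.768), -0.68 without control replicate 1 and -1.81 without control replicate 2, and its 3 other probe sets stood between -1.40 and -0.57. Hnrnpul1, a relative of HNRNPU, had 9.45 and 10.03 in the mutants and 10.43 and 10.33 in the controls. It was entirely lower under all 3 scalings, at -0.64 (SE 0.32), or -0.35 without mutant replicate 1.

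Next by p came Hnrnpu, Hnrnpk, Hnrnpd and Hnrnpa2b1, all entirely lower after quantile normalisation. Hnrnpu, also known as scaffold attachment factor A, had 11.46 and 11.70 in the mutants and 11.91 and 12.20 in the controls, a difference of -0.48 (SE 0.25). After quantile normalisation all 5 of its probe sets were lower, 4 of them entirely. In its brightest probe set the groups overlapped on the deposited scale, at -0.23, and with median centring, at -0.11. Hnrnpd, known as AUF1 for its binding to AU-rich elements, had 10.53 and 10.07 in the mutants and 10.66 and 10.90 in the controls, at -0.48 (SE 0.30), with its other probe set at 0.02. Hnrnpk, which binds C-rich RNA, had 12.22 and 12.17 in the mutants and 12.77 and 12.39 in the controls, at -0.39 (SE 0.23). Hnrnpa2b1 had 11.92 and 12.10 in the mutants and 12.45 and 12.26 in the controls, at -0.34 (SE 0.23), and its 3 other probe sets included 2 of the opposite sign. For Hnrnpk and Hnrnpa2b1 the difference was close to 0 with median centring, at 0.0044 and 0.028. Hnrnpul2 had the highest difference of the 45, 0.63 (SE 0.58), which rested on mutant replicate 2: the signals were 8.85 and 10.85 in the mutants and 9.41 and 9.04 in the controls, and its other probe set stood at -0.04. The other 3 hnRNPs with a higher mean were Hnrnph3, Hnrnpdl and Hnrnpll, at 0.24, 0.10 and 0.06.

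Most genes had more than 1 probe set, which gave a further view of the same RNA. Of 139 probe sets for the 47 genes 125 passed the filter, and 105 of these were lower and 20 higher, where 50.2% of all kept probe sets were lower. In 60 both mutant arrays lay below both controls (18.9% of all kept probe sets) and in 0 above. Of the 33 genes with more than 1 kept probe set, 10 had at least 1 of opposite sign to the brightest. Hnrnpdl, which is known to splice its own transcript, had 7 probe sets, of which 4 were lower and opposite to the brightest, and Hnrnpab spanned -0.67 to 0.51 over 7. Probe sets of a gene share its arrays and RNA and are not replicates.

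**Figure D4:**
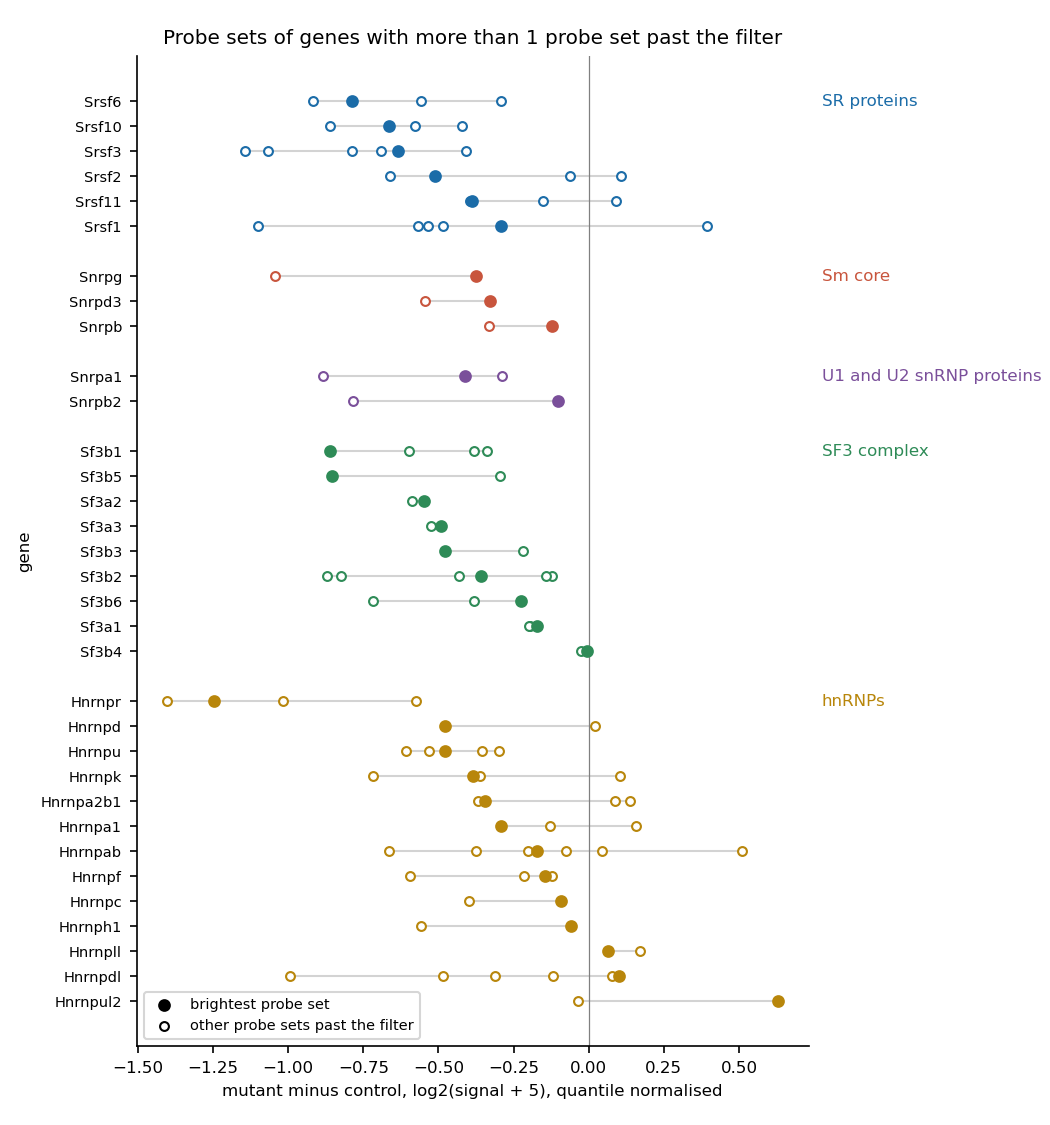
Mutant minus control difference (x axis, log2 units, quantile normalised) of every probe set past the filter for the 33 genes with more than 1 (rows, ordered by role). Filled points are the brightest probe set and open points the others; all 6 points of Srsf3 and all 4 of Hnrnpr lie below 0, whereas Hnrnpab and Hnrnpdl span it.

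The rest of the splicing machinery was read from lists outside the 5 name stems. Of 50 measured genes of the other core spliceosome 34 were lower (against 49.3% of all genes), 17 entirely lower (34%, against 19.2%) and 2 entirely higher (against 18.9%), with a median of -0.18 that turned to 0.0015 with median centring. As deposited, 7 were entirely lower (14%, against 14.9% of all genes), and with median centring 4 (8%, against 10.1%). Snrnp40, a U5 snRNP protein, differed by -0.59 (SE 0.29), the helicase gene Dhx15 by -0.48 (SE 0.27) and the U5 GTPase gene Eftud2 by -0.52 (SE 0.32). The differences of greatest size in this list went the other way and, chosen after their values were seen, were 1.30 (SE 0.80) for Dhx38, 0.83 (SE 0.53) for Snrnp70 and 0.60 (SE 0.45) for Snrnp35, all with overlapping groups. Dhx38 had 6.44 and 6.20 in the mutants and 3.57 and 6.46 in the controls, so control replicate 1 alone stood apart. Genes of snRNP assembly, by which the SMN complex loads Sm rings in the cytoplasm, gave 10 lower of 13, 7 of them entirely lower (53.8%, against 19.2% of all genes) and 0 entirely higher (against 18.9%). As deposited, 5 were entirely lower (38.5%, against 14.9%), and with median centring 4 (30.8%, against 10.1%). Their median was lower under each scaling, at -0.41 after quantile normalisation, -0.48 on the deposited scale and -0.36 with median centring. Among them Snupn, the import adaptor of assembled snRNPs, had 4.38 and 5.82 in the mutants and 6.88 and 6.05 in the controls, at -1.36 (SE 0.55). Snupn was dim, with deposited signals of 16.5 and 41.4 in the mutants and 119 and 57.9 in the controls. Ddx20, the SMN complex helicase, differed by -0.86 (SE 0.36), and Prmt5, which methylates Sm proteins, by -0.77 (SE 0.40).

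The genes with an Lsm symbol, most of which encode subunits of the Sm-like rings (Lsm12 and Lsm14a do not), gave 7 lower of 11, 1 entirely lower and 1 entirely higher (against 19.2% and 18.9% of all genes), with a median of -0.10, a sign that turned with median centring and without mutant replicate 1 or control replicate 2. Lsm2, the member with the smallest p, differed by -1.33 (SE 0.48), Lsm12 by 0.54 (SE 0.37) and Lsm3 by -0.33 (SE 0.35). Lsm2 was dim, with deposited signals of 39.0 and 15.5 in the mutants and 62.4 and 94.8 in the controls. The kinases of SR proteins gave 5 lower of 7 (against 49.3% of all genes), 2 entirely lower (28.6%, against 19.2%) and 1 entirely higher (against 18.9%), with a median of -0.23. As deposited 1 was entirely lower (14.3%, against 14.9% of all genes). With median centring 0 were (against 10.1%), and the median was -0.035. Clk3 differed by 0.48 (SE 0.38) and Prpf4b by -0.37 (SE 0.29). Of 42 other splicing regulators 31 were lower (against 49.3% of all genes), 10 entirely lower (23.8%, against 19.2%) and 1 entirely higher (against 18.9%), with a median of -0.21 that turned to 0.02 with median centring. As deposited 5 were entirely lower (11.9%, against 14.9% of all genes), and with median centring 2 (4.76%, against 10.1%). The nuclear matrix protein gene Matr3 differed by -0.67 (SE 0.25), Syncrip, the closest relative of Hnrnpr, by -0.70 (SE 0.33) and Tardbp, which encodes TDP-43, by -0.46 (SE 0.26). By limma 0 genes of these lists passed over all probe sets, and at an unadjusted p under 0.05 4 of 123 were lower and 0 higher (3.25%), against 3.62% and 3.32% of all genes.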

How the data were processed

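Mouse crypt RNA was measured on 4 single-colour oligonucleotide arrays, 2 from mutant and 2 from control mice. Each deposited value is a linear intensity per probe set from MAS5, per the submitters' processing notes. Its scaling target was not given in the sources used here. This algorithm subtracts mismatch signal, so dim probe sets are noisy. The 64 control probe sets of 45101 were left out. Gene symbols came from the platform annotation: 34945 probe sets had 1 symbol, 932 several and 9160 none, and only the first were used to name a gene.

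Values were transformed to log2(intensity + 5) and quantile normalised, since 2% trimmed means were 169 and 111 in the mutants and 130 and 130 in the controls. Probe sets at or above the median (50th percentile) of mean log2 signal, 4.79, were kept. Mutant and control were compared with limma 3.58.1 (R 4.3.3; lmFit, eBayes with an intensity trend, two-sided, Benjamini-Hochberg over 22519 probe sets), with 2 residual and 6.4 prior degrees of freedom. Folds are on the log2(intensity + 5) scale and understate the change of dim genes. SE is that of the fit. "Entirely lower" means that both mutant arrays lie below both controls. The number of arrays limits the precision.

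The 47 genes, the lists and the tests were chosen with earlier results of these data known, so the genes are described by counts and medians with no set test. Per-array values were given for the genes with the smallest p in each role, up to 6 SR proteins and hnRNPs and up to 4 elsewhere; single genes named beside them are those opposite to their role or at its ends, and were chosen after their values were seen. The fit was tested on simulated data. Alternatives were other scalings, pseudocounts, filters, variance models, probe set choices, a replicate block and each array left out. The labels do not state that arrays of the same number are pairs, so the shared numbers were not taken as pairs. Deviations of same-number arrays correlated at r = 0.03 over the kept probe sets, which cannot exclude pairing. The beta-actin 5' over 3' ratio was higher in replicate 1 of both groups (0.0945 and 0.149) than in replicate 2 (0.0448 and 0.0567). Enterocyte markers were also higher in replicate 1 of both groups, whereas goblet markers were so only in the mutants.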

Additional observations from a re-analysis of the deposited data

How the results depend on the processing

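With the values as deposited 2 probe sets of all genes passed the test, and with median centring 102, against 0 after quantile normalisation; 0 of the 45 genes did under any of these. Of the 45 genes, 11 were entirely lower as deposited (against 14.9% of all genes) and 5 with median centring (against 10.1%). Entirely higher ones numbered 4 (against 14.9%) and 1 (against 18.7%). After centring 25 were lower in mean (against 39.4%), at a median of -0.022. With median centring, signs turned for the hnRNPs (0.0044), the U1 and U2 proteins (0.029), the other core spliceosome (0.0015), the Lsm genes (0.079) and other regulators (0.016), and for Srsf1 (0.0902), Snrpb (0.18), Snrpc (0.029), Snrpb2 (0.032), Hnrnpk (0.0044) and Hnrnpa2b1 (0.028); as deposited Snrpb stood at 0.057. Median centring subtracts a constant from each array, so it shifted every deposited difference by the same amount. It moved the median of all genes to 0.13, and the group medians above all lay below that. Minus that median, Srsf1 stood at -0.044, Hnrnpk at -0.13, Hnrnpa2b1 at -0.11, Snrpc at -0.11, Snrpb2 at -0.10 and Snrpb at 0.042. Why the array medians differed was not tested.

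The combinations below were chosen after seeing the data. Restricting the genes to those above the 75th percentile of signal left the counts of the 45 at 11 and 4 as deposited and 5, 1 and 25 with median centring (median -0.022). The shares of all such bright genes were 12.3% and 18% as deposited and 7.29%, 20.4% and 33.9% with median centring, in the same order. The median of the 45 minus that of all such bright genes was -0.23, which is equal in both by construction. Without mutant replicate 1, entirely higher genes numbered 6 as deposited (against 17.8% of all genes) and 6 with median centring (against 25.6%). With centring there were 14 entirely lower (against 31.3%), 25 lower in mean (against 52.4%) and a median of -0.084. The difference from all genes was -0.053, again equal in both by construction.

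With each array left out in turn, probe sets past the test ranged from 0 to 85, entirely lower genes from 26 to 34, entirely higher from 0 to 8, and genes lower in mean from 33 to 40. The median ranged from -0.41 to -0.23 and that of the Lsm genes from -0.28 to 0.083; Snrpb ranged from -0.54 to 0.29, Snrpc from -0.53 to 0.12 and Snrpb2 from -0.23 to 0.024. With the replicate number as a block 1 probe set passed (0 of the 45 genes). The pseudocounts, filters and variance models, alone, moved no count of the 45 genes by over 1.5 times. When the probe sets of each gene were averaged, the median of the U1 and U2 proteins was -0.53. Without _s_at and _x_at probe sets 20 of 44 genes were entirely lower (45.5%, against 19.2% of all genes). Ctnnb1 and the genes with the smallest p in each role (24 in all, Srsf5, Hnrnpul2 and Snupn not among them) gave 383 values under these alternatives. Of these values 373 kept their sign and 10 reversed. The filters, variance models and replicate block cannot change a fitted difference, so many values had to keep their sign. All these genes but Ctnnb1 were also picked for a small p, so the count overstates how stable the signs were.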

Other observations

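Some probe sets are annotated to a gene of these families together with another gene and were therefore not counted above. There were 16, of which 13 passed the filter. Of these, 9 were lower (against 50.2% of all kept probe sets) and 5 had both mutant arrays below both controls (against 18.9%), with differences from -0.89 to 0.52 and a median of -0.12.

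The share of the summed deposited signal carried by the 47 genes was 0.718% and 0.829% in mutant replicates 1 and 2 and 0.876% and 0.940% in control replicates 1 and 2. Goblet cell markers stood the other way: 6 of 6 were higher in mean and 4 entirely higher (against 18.9% of all genes), with means of 10.96 and 10.78 in the mutants and 10.06 and 10.31 in the controls. Smooth muscle markers averaged 7.06 and 6.54 in the mutants and 5.94 and 6.72 in the controls, fibroblast markers 8.04 and 8.50 against 7.54 and 8.32, lymphocyte markers 5.89 and 5.36 against 5.60 and 4.81, enterocyte markers 12.68 and 12.00 against 12.66 and 11.95, and Paneth cell markers 9.90 and 10.13 against 10.33 and 10.58, in the same order. Their part in the splicing gene values was not tested.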
